A study of Mus musculus with 9 samples.

Results

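The 31 genes described here are the semaphorins, plexins and neuropilins of the mouse. They were taken by symbol alone from the 25239 gene symbols of the count tables, as every *Sema3* to *Sema7* gene with a letter from a to g, every *Plxna*, *Plxnb*, *Plxnc* and *Plxnd* gene, *Nrp1* and *Nrp2*. This gave 20 semaphorins, which are ligands, and 11 receptors. Of these, 28 had enough reads to be tested and 3 did not (*Sema3a*, *Sema3g* and *Plxnb3*). RNA-seq was compared between E14 mouse embryonic stem cells (ESCs) with intact *Rbbp4*, the control, and 2 ESC lines with CRISPR mutations in *Rbbp4*, which encodes a histone-binding subunit shared by PRC2 and several histone deacetylase complexes. In the *Rbbp4* Ins/Ins line (Ins/Ins below) both alleles have the same short in-frame insertion. The *Rbbp4* Ins/Del line (Ins/Del below) has that insertion on one allele, with an in-frame deletion on the other. Each mutant line grew from a single clone, so a difference between lines cannot be told apart from a difference between clones. Each line has 3 libraries from cells grown in serum and LIF, and the labels do not say that these came from separate cultures, so the p-values below measure only the spread between these libraries.

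Semaphorins are guidance cues, best known for steering axons and growing blood vessels. Class 3 semaphorins are secreted, classes 4, 5 and 6 span the membrane, and *Sema7a* is held at the surface by a lipid anchor. Most class 3 semaphorins bind a neuropilin, which passes the signal to a plexin, whereas the membrane classes and *Sema3e* can bind plexins directly. The cytoplasmic part of a plexin acts on small GTPases and, through them, on the actin cytoskeleton and on integrin adhesion.

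The starts of 4 members whose levels are described below are shown for orientation: 2 that were lower in both mutants (*Sema3e* and *Nrp2*) and 2 that were higher (*Sema7a* and *Sema6c*). They are RefSeq windows of GRCm38.p6 that end at the base before a RefSeq transcript start, on the plus strand, at chr5:14025026-14025275, chr1:62703067-62703284, chr9:57939862-57940111 and chr3:95160170-95160419. The *Nrp2* window was ended where the first GENCODE exon begins and holds 218 bases, the others 250. Capitals mark the GC box GGGCGG, the CCAAT box CCAAT and the cell cycle element TTTGAA, each on either strand, and in *Sema6c* the last CCAAT box and the GC box share bases.
*Sema3e*: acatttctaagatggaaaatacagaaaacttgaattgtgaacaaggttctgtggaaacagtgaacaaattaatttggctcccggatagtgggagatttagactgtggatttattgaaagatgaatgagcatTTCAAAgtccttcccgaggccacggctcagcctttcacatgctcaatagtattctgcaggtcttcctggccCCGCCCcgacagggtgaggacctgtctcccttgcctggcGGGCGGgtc
*Nrp2*: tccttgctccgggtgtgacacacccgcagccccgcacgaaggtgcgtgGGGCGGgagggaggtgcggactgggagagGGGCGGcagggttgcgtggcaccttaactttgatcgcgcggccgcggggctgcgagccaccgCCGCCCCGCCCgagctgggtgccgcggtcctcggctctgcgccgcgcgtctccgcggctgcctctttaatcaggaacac
*Sema7a*: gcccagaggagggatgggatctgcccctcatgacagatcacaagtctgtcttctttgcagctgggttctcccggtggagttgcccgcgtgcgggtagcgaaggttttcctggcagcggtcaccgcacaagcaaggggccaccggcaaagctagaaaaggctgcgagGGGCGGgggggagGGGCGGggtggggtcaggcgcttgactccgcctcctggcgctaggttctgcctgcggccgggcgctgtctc
*Sema6c*: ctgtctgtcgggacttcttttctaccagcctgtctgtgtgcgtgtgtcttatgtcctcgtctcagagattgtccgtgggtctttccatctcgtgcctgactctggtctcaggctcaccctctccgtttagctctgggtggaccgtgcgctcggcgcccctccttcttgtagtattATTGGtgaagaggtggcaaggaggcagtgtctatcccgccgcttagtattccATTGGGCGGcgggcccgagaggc

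*Sema3e* holds 2 GC boxes and 1 TTTGAA, *Nrp2* 4 GC boxes, *Sema7a* 2 GC boxes and *Sema6c* 1 GC box and 2 CCAAT boxes, so the GC box is in windows of genes that were lower and of genes that were higher. RefSeq gave 37 windows of 250 bases for 26 of the 31 members, and none was found for *Plxna1*, *Plxna4*, *Sema3b*, *Sema3f* and *Sema6a*. A GC box was in 27 of the 37 windows (73%), against 32.7% of all 32851 windows in the table. The members' windows had a median C+G content of 64%, from 40.8 to 78.4%, against 52.4% over all windows. A CCAAT box was in 18.9% of the members' windows against 33.8%, the TTTGAA element in 10.8% against 16%, the E-box CAGGTG in 13.5% against 17.2%, the TEAD motif GGAATG in 8.11% against 12.6%, and the TATA box TATAAA in 0 against 12.4%. These shares use whole windows, and those of *Sema4c*, *Plxna2*, *Sema3c*, *Plxnb1* and *Sema5a* begin inside a GENCODE exon. These matches describe letters only, and windows of the same gene can overlap.

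In both mutants the 5 tested class 3 semaphorins, which are secreted, the neuropilins, *Sema4c*, *Sema5a* and *Sema6a* were lower by more than 2-fold. *Plxna3*, *Plxnb1* and *Plxnb2* were also lower in both. *Sema4b*, *Sema4d*, *Sema5b*, *Sema6c* and *Sema7a* were higher in both, of which *Sema5b* and *Sema7a* by more than 2-fold. Counts were scaled to a common library size (normalized counts) and tested across all genes with edgeR's quasi-likelihood test, and a gene was called at a Benjamini-Hochberg adjusted p of at most 0.01. In Ins/Ins, 16 of the 28 tested members were lower (57.1%), where 29.4% of all 14125 tested genes were. Of these, 12 were more than 2-fold lower (42.9%), against 8.96% of all genes. In the same line 7 members were higher (25%), against 29% of all genes, and 2 of them by more than 2-fold (7.14%), against 7%. Ins/Del had 13 lower members (46.4%), against 31.9% of all genes, 11 of them by more than 2-fold (39.3%), against 10.2%. It had 7 higher members (25%), against 30.6%, and 2 by more than 2-fold (7.14%), against 8.45%. The shares of higher members were thus near or under those of all genes, and the shares of members lower by more than 2-fold were above them.

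The median log2 fold change of the tested members was -0.76 in Ins/Ins and -0.42 in Ins/Del, whereas over all tested genes it was 0.0038 and -0.011. Both comparisons use the same 3 control libraries, so a member called in both is not supported by separate controls. In both lines 13 tested members were lower (46.4%), against 26.7% of all genes, and 10 of them by more than 2-fold (35.7%), against 8.1%. In both lines 5 were higher (17.9%), against 25.6%, and 2 by more than 2-fold (7.14%), against 6.58%. *Sema3d* and *Sema6d* passed the filter on low counts through the control libraries alone and so had to differ. Without these 2, 14 of the other 26 tested members were lower in Ins/Ins and 12 in Ins/Del. Over all tested genes, 29.4% and 31.9% were. Both were also among the 12 members more than 2-fold lower in Ins/Ins. *Sema3d* was among the 11 in Ins/Del and the 10 in both lines. The shares past 2-fold were not computed without them. In bulk RNA, fewer cells of a type and less RNA per cell cannot be told apart.

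**Figure D1:**
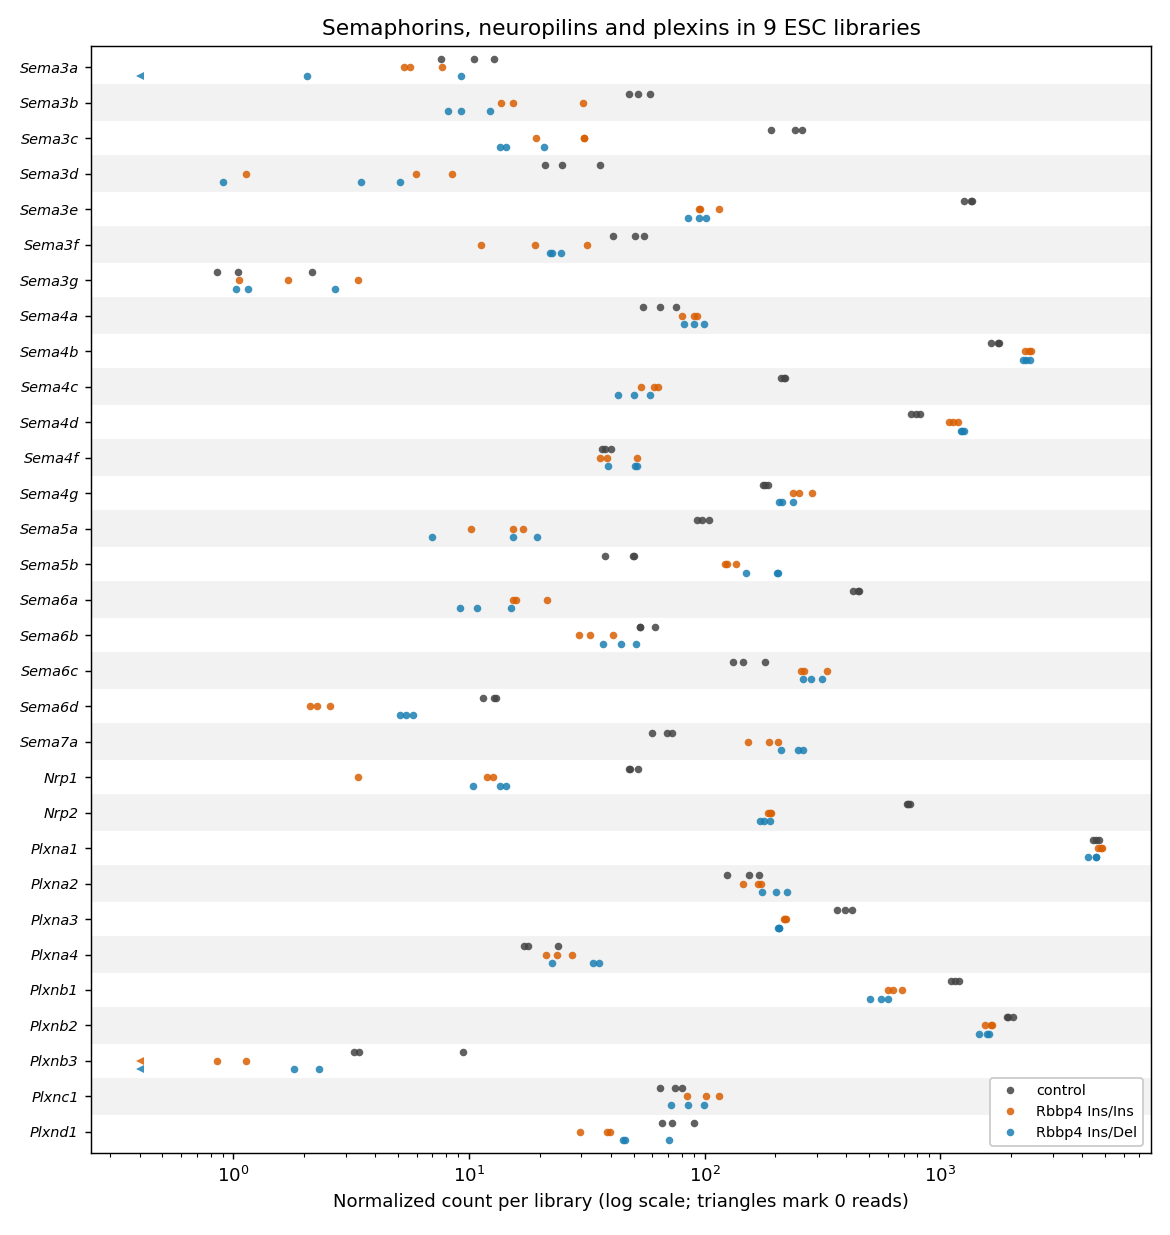
Normalized count of each of the 31 members in each of the 9 libraries, on a log scale, with control in grey, Ins/Ins in orange and Ins/Del in blue. The levels run from 0 reads, for *Sema3a* and *Plxnb3* in single mutant libraries, to 4879 for *Plxna1*, and the mutant libraries of *Sema3c*, *Sema3e* and *Sema6a* lie far left of the control libraries, whereas those of *Sema5b*, *Sema6c* and *Sema7a* lie to the right.

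**Figure D2:**
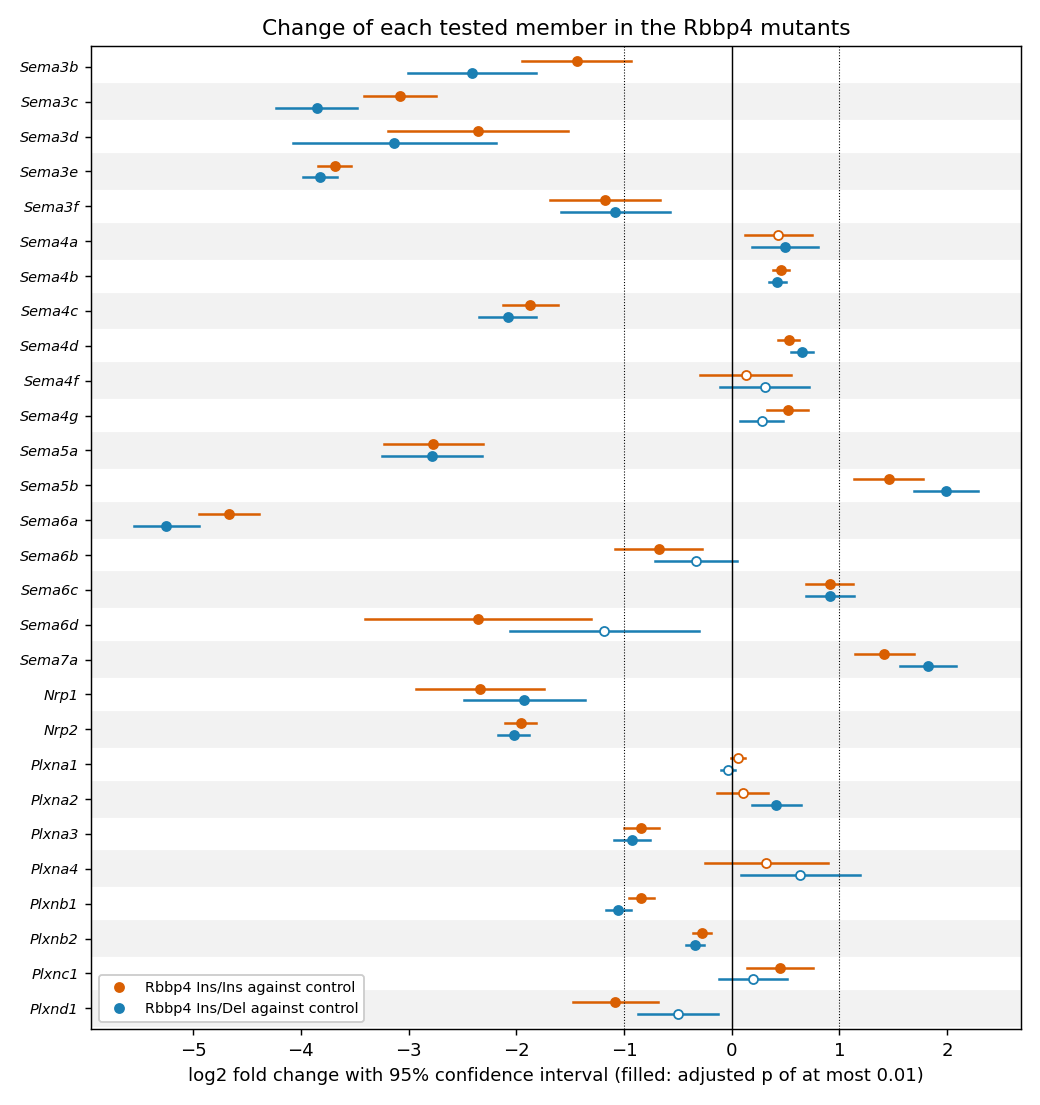
Log2 fold change of the 28 tested members against control with its 95% confidence interval, for Ins/Ins (orange) and Ins/Del (blue), with filled points at an adjusted p of at most 0.01 and dotted lines at a 2-fold change. The 5 tested class 3 semaphorins and both neuropilins lie to the left of the line at -1 in both mutants, and the points of the A plexins lie between the dotted lines.

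The 5 tested class 3 semaphorins fell by more than 2-fold in both mutants, one of which, *Sema3d*, had to differ to be tested. *Sema3e*, a vessel and axon repellent that binds plexin D1 without a neuropilin, was the most abundant of them. Its normalized counts were 1361, 1257 and 1355 in the control, 115, 95.9 and 95.1 in Ins/Ins and 84.8, 101 and 94.9 in Ins/Del. No mutant library came near the control libraries, and the mutant lines overlapped each other. The log2 fold change was -3.69 ± 0.08 (SE, as for every log2 change below; 3 libraries a line) for Ins/Ins (adjusted p = 1.64e-32) and -3.82 ± 0.08 for Ins/Del (adjusted p = 5.15e-33), or 12.9-fold and 14.1-fold lower.

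*Sema3c*, known for guiding neural crest cells into the outflow tract of the heart, had 260, 192 and 241 normalized counts in the control. It had 30.8, 19.2 and 30.7 in Ins/Ins and 14.3, 13.5 and 20.8 in Ins/Del. It thus fell 8.47-fold (log2 fold change -3.08 ± 0.16, adjusted p = 2.90e-19) and 14.4-fold (-3.85 ± 0.18, adjusted p = 7.16e-21), with all mutant libraries below all control libraries.

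*Sema3b* and *Sema3f*, both named as tumour suppressor candidates and close neighbours on chromosome 9, changed less. *Sema3b* had 52.1, 58.7 and 47.6 normalized counts in the control, 15.4, 30.5 and 13.7 in Ins/Ins and 12.3, 8.12 and 9.26 in Ins/Del. Its log2 fold changes were -1.44 ± 0.25 (adjusted p = 4.34e-06) and -2.41 ± 0.29 (adjusted p = 2.29e-09). *Sema3f* had 50.4, 40.9 and 55.2 in the control, 31.6, 11.3 and 19.0 in Ins/Ins and 24.5, 22.6 and 22.0 in Ins/Del. The Ins/Ins libraries were spread over a wide range for both genes, yet each stayed below the lowest control library. For *Sema3f* the log2 fold changes were -1.18 ± 0.25 (adjusted p = 9.12e-05) and -1.08 ± 0.25 (adjusted p = 2.22e-04). It stayed called but under 2-fold in Ins/Ins without Ins/Ins replicate 2 (-0.91) and in Ins/Del without control replicate 3 (-0.98).

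*Sema3d*, a cue for endothelial and neural crest cells, had few reads. Its normalized counts were 35.9, 20.9 and 24.9 in the control, 5.99, 1.13 and 8.46 in Ins/Ins and 5.11, 0.902 and 3.47 in Ins/Del. The reads summed over the libraries, 85 in the control, 16 in Ins/Ins and 9 in Ins/Del, give a control-to-mutant ratio of 5.23 (95% exact Poisson interval 3.04 to 9.56) and 9.14 (4.60 to 20.7), where the intervals cover counting error only. The fitted log2 fold changes were -2.35 ± 0.41 (adjusted p = 4.36e-06) and -3.13 ± 0.47 (adjusted p = 2.05e-07). *Sema3a*, the classical growth cone collapsing factor, had at most 15 reads in any control library and at most 9 in a mutant library. Its normalized counts were 12.8, 10.5 and 7.58 in the control, 7.70, 5.64 and 5.29 in Ins/Ins and 2.04, 0 and 9.26 in Ins/Del. Both mutants thus overlapped the control, and *Sema3a* was not tested. Its control-to-mutant ratio of summed reads was 1.66 (0.912 to 3.10) for Ins/Ins and 3.10 (1.49 to 7.06) for Ins/Del. These intervals leave out the spread between libraries. *Sema3g* had at most 3 reads in any library, so no direction can be given.

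The class 3 genes lie mostly in 2 places. *Sema3a*, *Sema3c*, *Sema3d* and *Sema3e* share a gene-poor stretch of 5.35 Mb of chromosome 5 (GRCm38 chr5:12383385-17730268), and *Sema3b* and *Sema3f* lie within 0.113 Mb on chromosome 9 (chr9:107597674-107710475). Within these stretches and 500 kb on either side, 2 other tested genes lay on chromosome 5, of which 1 (*Cacna2d1*, a calcium channel subunit) was more than 2-fold lower in both mutants. On chromosome 9, 30 other genes were tested. In Ins/Ins, 7 of them were lower and 10 higher, with a median log2 fold change of 0.05, and in Ins/Del 5 were lower and 7 higher, with a median of 0.0012. Over all tested genes, 29.4% were lower and 29% higher in Ins/Ins, and 31.9% and 30.6% in Ins/Del. The fall of *Sema3b* and *Sema3f* was not shared by the median gene around them. The 2 other genes on chromosome 5 had a median log2 fold change of -0.78 in Ins/Ins and -0.60 in Ins/Del. Whether either region changed as a whole was not tested.

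Of the 6 class 4 semaphorins, 3 rose in each mutant, by less than 2-fold, and 1 fell. *Sema4b*, a transmembrane ligand, was the highest of the semaphorins per kilobase of exon in each line, with a level of 16.8 ± 0.654 RPKM (reads per kilobase of exon, scaled to library size; SD, n = 3) in the control, 23.1 ± 0.709 in Ins/Ins and 22.5 ± 0.791 in Ins/Del. It rose by a log2 fold change of 0.46 ± 0.04 (adjusted p = 2.64e-13) and 0.42 ± 0.04 (adjusted p = 2.06e-12). *Sema4d*, the ligand of plexin B1 first known from lymphocytes, rose by 0.53 ± 0.05 (adjusted p = 3.51e-12) and 0.65 ± 0.05 (adjusted p = 5.70e-15). For both genes every mutant library was above every control library.

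*Sema4c*, a ligand of plexin B2, was the one member of class 4 that fell. It had 216, 212 and 220 normalized counts in the control, 53.9, 60.9 and 63.4 in Ins/Ins and 50.1, 58.6 and 42.8 in Ins/Del. The control libraries lay within a few counts of one another, far above both mutants. The log2 fold changes were -1.87 ± 0.13 (adjusted p = 4.49e-16) and -2.08 ± 0.13 (adjusted p = 3.80e-17), or 3.65-fold and 4.22-fold lower. An RNA on the opposite strand, *D430040D24Rik*, overlaps 7.27% of the exonic length of *Sema4c*. The strand setting of the counting is not given in the sources used here, so reads of the 2 genes may be mixed there.

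The other class 4 genes had log2 fold changes of at most 0.52. *Sema4g* rose by 0.52 ± 0.09 on the log2 scale in Ins/Ins (adjusted p = 7.59e-06) and had a log2 fold change of 0.28 ± 0.10 in Ins/Del that missed the threshold (adjusted p = 0.0108) and passed it without Ins/Ins replicate 1 (0.29) or 2 (0.28) or Ins/Del replicate 3 (0.32). *Sema4a*, which acts on lymphocytes and vessels, rose in Ins/Del (0.50 ± 0.15, adjusted p = 0.00401) and had 0.43 ± 0.15 in Ins/Ins (adjusted p = 0.0123). Its call in Ins/Del was lost without control replicate 1 (log2 fold change 0.37) or Ins/Del replicate 2 (0.42), and in Ins/Ins it was gained without control replicate 2 (0.56) or Ins/Ins replicate 1 (0.51). *Sema4f* had log2 fold changes of 0.13 ± 0.21 and 0.31 ± 0.20 that did not pass (adjusted p = 0.589 and 0.179), with 95% intervals of -0.29 to 0.55 and -0.11 to 0.72.

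Both class 5 genes, whose products carry thrombospondin repeats outside the cell, passed 2-fold, in opposite directions. *Sema5a* had 97.5, 105 and 93.1 normalized counts in the control, 15.4, 10.2 and 16.9 in Ins/Ins and 19.4, 15.3 and 6.94 in Ins/Del. All mutant libraries were below all control libraries, and the log2 fold changes were -2.77 ± 0.23 (adjusted p = 1.10e-13) and -2.78 ± 0.23 (adjusted p = 9.30e-14). *Sema5b* had 49.6, 50.3 and 37.9 in the control, 124, 135 and 123 in Ins/Ins and 202, 150 and 205 in Ins/Del. The 3 lines did not overlap, and *Sema5b* rose by 1.46 ± 0.16 (adjusted p = 1.73e-10) and 1.99 ± 0.15 (adjusted p = 4.81e-15), or 2.74-fold and 3.98-fold.

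In class 6, ligands of A plexins, *Sema6a* had the largest fold change of all members in both mutants. It had 449, 450 and 428 normalized counts in the control, 15.4, 21.4 and 15.9 in Ins/Ins and 9.20, 10.8 and 15.0 in Ins/Del. It fell 25.4-fold (log2 fold change -4.66 ± 0.14, adjusted p = 1.17e-27) and 38.0-fold (-5.25 ± 0.15, adjusted p = 2.99e-28). *Sema6c* moved the other way, with 145, 180 and 132 normalized counts in the control, 330, 256 and 264 in Ins/Ins and 316, 282 and 261 in Ins/Del. Its rise was just under 2-fold in both lines, at 0.91 ± 0.11 on the log2 scale in each (adjusted p = 2.13e-09 and 1.66e-09), and over 2-fold without control replicate 2 (1.05 and 1.05). No mutant library reached down to the control.

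*Sema6d* had few reads, with 12.8, 11.5 and 13.0 normalized counts in the control, 2.57, 2.26 and 2.11 in Ins/Ins and 5.11, 5.41 and 5.79 in Ins/Del. The control-to-mutant ratio of summed reads was 5.35 (95% exact Poisson interval 2.36 to 14.2) for Ins/Ins, where it was called (adjusted p = 1.33e-04), and 2.30 (1.25 to 4.42) for Ins/Del, where it was not (adjusted p = 0.0146). *Sema6b* fell by 0.68 on the log2 scale in Ins/Ins (SE 0.20, adjusted p = 0.00301), a call lost without control replicate 2 (-0.59) or without Ins/Ins replicate 2 (-0.58) or 3 (-0.63). In Ins/Del its log2 fold change was -0.33 ± 0.19 (adjusted p = 0.117).

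*Sema7a*, whose product signals through plexin C1 and through integrins with a beta-1 chain, rose in both mutants. It had 72.7, 69.1 and 59.5 normalized counts in the control, 152, 188 and 205 in Ins/Ins and 262, 210 and 249 in Ins/Del. The 3 lines did not overlap. The log2 fold changes were 1.42 ± 0.13 (adjusted p = 7.20e-12) and 1.82 ± 0.13 (adjusted p = 1.19e-15), or 2.67-fold and 3.54-fold.

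Summed per kilobase over their genes, the semaphorin classes differed in direction, while the semaphorin total of each mutant overlapped that of the control. The class 3 sum was 10.9 ± 0.667 RPKM (SD, n = 3) in the control, 1.34 ± 0.153 in Ins/Ins and 1.09 ± 0.0371 in Ins/Del. The class 4 sum was 27.2 ± 0.852, 34.8 ± 1.03 and 34.8 ± 0.833. The sum of all semaphorins was 44.9 ± 1.16, 43.5 ± 1.23 and 44.7 ± 0.0608. Class 3 thus made up 24.4 ± 1.61% of the semaphorin sum in the control, 3.07 ± 0.281% in Ins/Ins and 2.43 ± 0.0866% in Ins/Del. The share of class 4 was 60.6 ± 0.734%, 80.2 ± 0.122% and 77.8 ± 1.85%, and that of *Sema7a* 2.48 ± 0.19%, 6.98 ± 1.15% and 8.93 ± 0.997%. The sum of the plexins and neuropilins was lower in the mutants, at 56.4 ± 1.63 in the control, 48.2 ± 1.19 in Ins/Ins and 45.4 ± 2.17 in Ins/Del, and neither mutant overlapped the control. These sums were not tested.

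**Figure D3:**
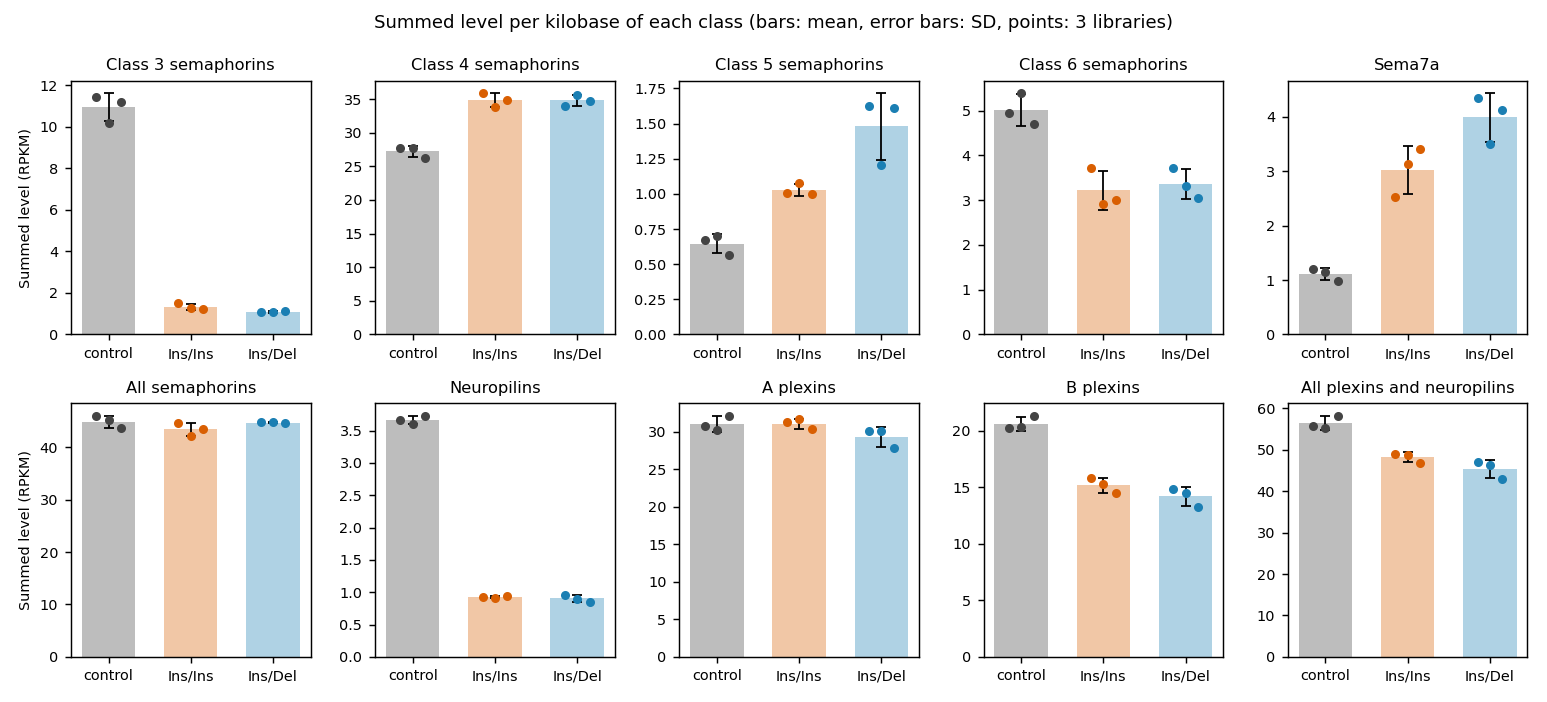
Summed level of each class of semaphorin and receptor in RPKM, with the mean of each line as a bar that starts at 0, the SD as an error bar and the 3 libraries as points. The class 3 sum drops from 10.9 in the control to 1.34 and 1.09 in the mutants and the neuropilin sum from 3.67 to 0.927 and 0.905, whereas the sum of all semaphorins lies between 42.2 and 46.0 in every library.

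Both neuropilins fell by more than 2-fold in both mutants. *Nrp2*, a receptor for class 3 semaphorins and for VEGF-C, had 734, 721 and 744 normalized counts in the control, 186, 192 and 189 in Ins/Ins and 189, 179 and 172 in Ins/Del. The libraries of a line lay close together, and the log2 fold changes were -1.96 ± 0.07 (adjusted p = 9.08e-25) and -2.02 ± 0.07 (adjusted p = 3.65e-25). *Nrp1*, a receptor for *Sema3a* and VEGF-A, was much lower, with 47.9, 48.2 and 52.0 normalized counts in the control. It had 12.0, 3.39 and 12.7 in Ins/Ins and 14.3, 13.5 and 10.4 in Ins/Del. Its log2 fold changes were -2.34 ± 0.29 (adjusted p = 6.41e-09) and -1.93 ± 0.28 (adjusted p = 1.04e-07), with all mutant libraries below the control. Per kilobase, *Nrp2* made up most of the neuropilin level in the control, at 3.39 ± 0.0536 RPKM (SD, n = 3) against 0.277 ± 0.0128 for *Nrp1*.

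The A plexins, which signal for neuropilins and for class 6 semaphorins, had a summed level of 31.1 ± 1.02 RPKM (SD, n = 3) in the control, 31.1 ± 0.658 in Ins/Ins and 29.4 ± 1.32 in Ins/Del. Most of this was *Plxna1*, the most abundant of all 31 members per kilobase. It had 4573, 4457 and 4734 normalized counts in the control, 4816, 4879 and 4662 in Ins/Ins and 4606, 4603 and 4243 in Ins/Del. Both mutants overlapped the control, and the log2 fold changes of 0.06 ± 0.03 and -0.03 ± 0.03 did not pass the threshold (adjusted p = 0.101 and 0.401), with 95% intervals of -0.0061 to 0.13 and -0.099 to 0.036. An RNA on the opposite strand, *Gm26811*, overlaps 10.7% of the exonic length of *Plxna1*.

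*Plxna3* was the A plexin that fell. It had 365, 393 and 423 normalized counts in the control, 221, 217 and 220 in Ins/Ins and 205, 207 and 207 in Ins/Del. All mutant libraries lay below the control, with log2 fold changes of -0.84 ± 0.08 (adjusted p = 8.32e-12) and -0.93 ± 0.08 (adjusted p = 6.92e-13). *Plxna2*, a receptor for *Sema6a*, had 171, 125 and 154 in the control, 146, 168 and 174 in Ins/Ins and 200, 223 and 176 in Ins/Del. The Ins/Del libraries lay above those of both other lines, and Ins/Ins overlapped the control. It was called higher in Ins/Del (0.41 ± 0.11, adjusted p = 0.00138), a call that was lost without control replicate 2 (0.31) or Ins/Del replicate 2 (0.32), and not in Ins/Ins (0.10 ± 0.12, adjusted p = 0.445).

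*Plxna4*, another receptor for *Sema6a*, had 17.1, 17.8 and 23.8 normalized counts in the control, 27.4, 23.7 and 21.1 in Ins/Ins and 35.8, 22.6 and 33.6 in Ins/Del. The lines overlapped. Its log2 fold changes of 0.32 ± 0.28 and 0.64 ± 0.27 did not pass (adjusted p = 0.317 and 0.0349).

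Of the B plexins, which carry the receptors for *Sema4d* and *Sema4c*, both tested genes fell in both mutants. *Plxnb1* had 1111, 1156 and 1196 normalized counts in the control, 690, 633 and 600 in Ins/Ins and 598, 562 and 503 in Ins/Del. The log2 fold changes were -0.84 ± 0.06 (adjusted p = 4.78e-16) and -1.05 ± 0.06 (adjusted p = 8.46e-19), the latter under 2-fold without Ins/Del replicate 3 (-0.99). The fall of *Plxnb1* went with a rise of its ligand *Sema4d*, whereas both *Sema4c* and its receptor *Plxnb2* fell.

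*Plxnb2* had 1947, 1913 and 2038 normalized counts in the control, 1666, 1643 and 1552 in Ins/Ins and 1607, 1588 and 1459 in Ins/Del. Its changes were small but larger than the spread, with log2 fold changes of -0.28 ± 0.04 (adjusted p = 2.41e-07) and -0.34 ± 0.04 (adjusted p = 3.31e-09). *Plxnb3*, a receptor for *Sema5a*, had at most 9 reads in a control library and at most 2 in a mutant library. Its control-to-mutant ratio of summed reads was 7.88 (95% exact Poisson interval 1.85 to 70.6) for Ins/Ins and 3.87 (1.25 to 15.9) for Ins/Del.

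*Plxnd1*, the receptor of *Sema3e*, had 72.7, 90.1 and 66.0 normalized counts in the control, 38.5, 39.5 and 29.6 in Ins/Ins and 70.5, 46.0 and 45.1 in Ins/Del. It fell in Ins/Ins (log2 fold change -1.08 ± 0.20, adjusted p = 8.28e-06), though by less than 2-fold without control replicate 2 (-0.94) or Ins/Ins replicate 3 (-0.96). In Ins/Del, where the highest library lay among the control libraries, the change of -0.50 ± 0.18 missed the threshold (adjusted p = 0.0145) and was called without that library, replicate 1 (-0.74), or without control replicate 3 (-0.57). Per kilobase, *Sema3e* stood at 7.82 ± 0.346 RPKM in the control and *Plxnd1* at 0.573 ± 0.0933 (SD, n = 3), and in Ins/Ins at 0.602 ± 0.0651 and 0.269 ± 0.0409.

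*Plxnc1*, the plexin that binds *Sema7a*, had 80.4, 64.9 and 74.7 normalized counts in the control, 101, 84.6 and 115 in Ins/Ins and 84.8, 72.2 and 99.5 in Ins/Del. It was called higher in Ins/Ins (0.45 ± 0.15, adjusted p = 0.00875), but the call was lost under 7 of 15 other settings. Among them were the fits without control replicate 2 (0.38), control replicate 3 (0.47), Ins/Ins replicate 1 (0.46) or 3 (0.35) and Ins/Del replicate 1 (0.45). In Ins/Del the lines overlapped and the change of 0.20 ± 0.16 did not pass (adjusted p = 0.252).

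Between the mutants, *Sema5b* and *Sema7a* differed past the threshold. Compared directly, with no control library in the contrast, Ins/Del had 2 members higher than Ins/Ins (7.14% of those tested), against 6.17% of all genes, and 0 lower, against 4.64%. At an unadjusted p under 0.05, edgeR's test gave 5 members in each direction. At an adjusted p of at most 0.01, DESeq2 called 1 higher and 0 lower. The shares of all genes at the unadjusted limit and under DESeq2 were not computed, so these counts cannot be set against them. The 2 members that edgeR called were *Sema5b*, higher by 0.54 ± 0.12 on the log2 scale (adjusted p = 0.00137), and *Sema7a*, higher by 0.41 ± 0.11 (adjusted p = 0.00562), with all 3 Ins/Del libraries above all 3 of Ins/Ins. The call of *Sema5b* was lost without Ins/Del replicate 1 (0.46) or 3 (0.46). That of *Sema7a* was lost without Ins/Ins replicate 1 (0.28) or 2 (0.44) and without Ins/Del replicate 1 (0.34) or 3 (0.38), and under DESeq2 (0.41, adjusted p = 0.0339). *Plxnb1*, at -0.21 ± 0.06 (adjusted p = 0.0156), was called lower without Ins/Ins replicate 3 (-0.26) or Ins/Del replicate 1 (-0.27). Wide intervals remained for the low members, such as *Sema3b* at -0.97 (95% interval -1.69 to -0.25, adjusted p = 0.0512) and *Sema3d* at -0.78 (-2.13 to 0.58, adjusted p = 0.467).

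**Figure D4:**
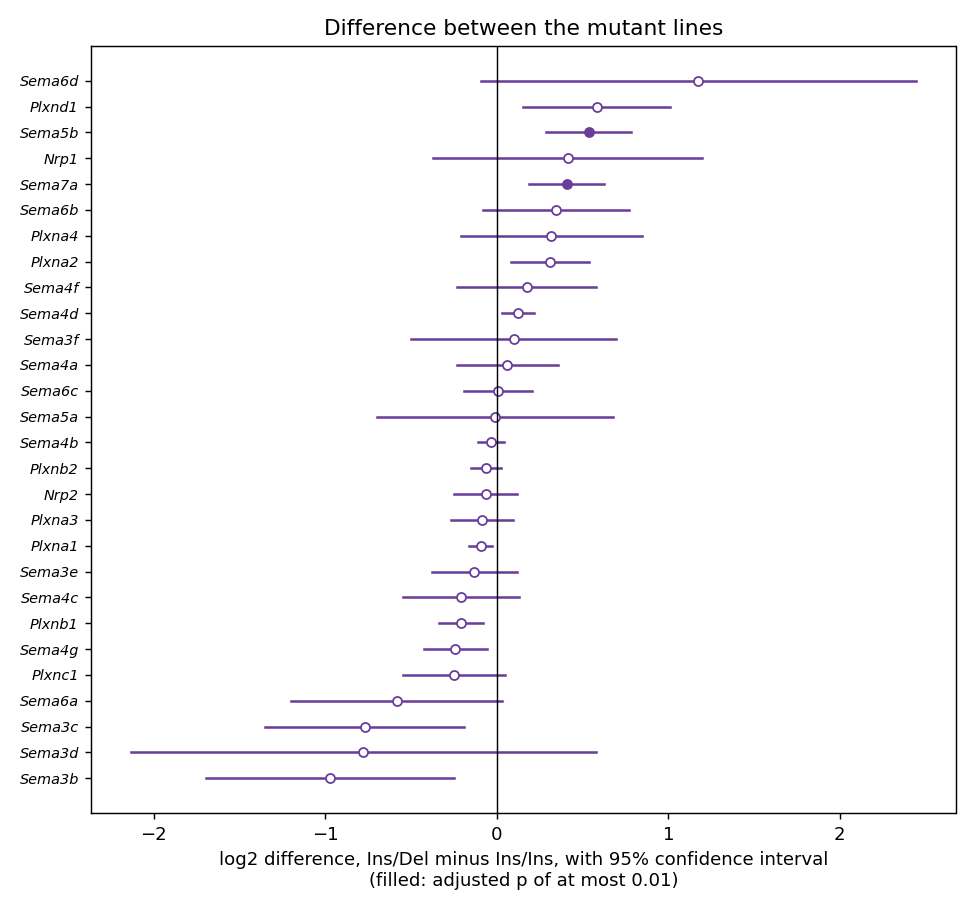
Log2 difference of Ins/Del from Ins/Ins for the 28 tested members, in order of size, with its 95% confidence interval and with filled points at an adjusted p of at most 0.01. *Sema5b* (0.54) and *Sema7a* (0.41) are the filled points, and the intervals of *Sema3d* and *Sema6d* are the widest.

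Other genes of the pathway were taken from a list of 57, of which 52 were tested. This list, like the members, was chosen with earlier results of these data known, so its shares are descriptive only. In Ins/Ins 23 were lower and 11 higher, and in Ins/Del 21 were lower and 16 higher, that is 44.2% and 40.4% lower against 29.4% and 31.9% of all genes, and 21.2% and 30.8% higher against 29% and 30.6%. Their median log2 fold change was -0.14 in Ins/Ins and -0.15 in Ins/Del. Of the 14 co-receptors and other receptors, 9 were tested, and 7 were lower and 1 higher in Ins/Ins, with 6 and 2 in Ins/Del. The 22 cytoplasmic effectors, all tested, were split, with 7 lower and 6 higher in Ins/Ins and 6 and 8 in Ins/Del. Among the 14 small GTPases and their regulators, 6 were lower in each line, with 3 higher in Ins/Ins and 4 in Ins/Del. Of the 7 VEGF ligands and receptors, which share the neuropilins, 3 were lower in each line, with 1 and 2 higher.

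More than 2-fold lower in both mutants were 11 of these genes (21.2% of those tested), against 8.1% of all genes, and 1 was more than 2-fold higher (1.92%), against 6.58%. *Itgb1* and *Itga1*, the chains of an integrin that binds *Sema7a*, were among them, so that while *Sema7a* rose both fell. *Itgb1* had 8354, 7501 and 8044 normalized counts in the control, 3619, 3653 and 3554 in Ins/Ins and 3761, 3994 and 3572 in Ins/Del, with log2 fold changes of -1.14 ± 0.04 (adjusted p = 9.25e-27) and -1.08 ± 0.04 (adjusted p = 4.68e-26). *Itga1* had log2 fold changes of -2.26 ± 0.24 and -3.19 ± 0.28 (adjusted p = 1.51e-10 and 6.07e-13).

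*Met*, a receptor tyrosine kinase that forms complexes with B plexins, had log2 fold changes of -1.52 ± 0.10 (adjusted p = 4.57e-16) and -1.55 ± 0.10 (adjusted p = 2.82e-16). *Nrcam*, an adhesion molecule that partners *Nrp2*, had -2.72 ± 0.25 and -2.50 ± 0.24 (adjusted p = 2.06e-12 and 7.72e-12). Inside the cell, *Dpysl2* (CRMP2, a tubulin-binding mediator of *Sema3a*) had -1.76 ± 0.11 and -2.04 ± 0.12 (adjusted p = 8.88e-17 and 2.94e-18), and *Mical2*, an oxidase of actin, had -2.36 ± 0.24 and -2.71 ± 0.26 (adjusted p = 5.15e-11 and 5.14e-12). These 4 genes were named because they fell by more than 2-fold in both lines, as the class 3 semaphorins and the neuropilins did. Other genes of the list went either way. *Dpysl3* was higher in both lines (log2 fold changes 0.63 ± 0.04 and 0.99 ± 0.04), as was *L1cam*, whereas *Dpysl5* was lower in both.

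*Pak1*, a kinase downstream of Rac, had -1.91 ± 0.05 and -2.01 ± 0.05 (adjusted p = 2.55e-28 and 5.13e-29). *Rnd3*, an atypical GTPase, had -1.64 ± 0.06 and -1.53 ± 0.06 (adjusted p = 5.65e-25 and 3.06e-24). *Rras*, a substrate of the GTPase-activating domain of plexins, had -1.16 ± 0.12 and -1.36 ± 0.13 (adjusted p = 1.11e-10 and 3.32e-12). A related GTPase, *Mras*, was the one gene of the list that rose by more than 2-fold in both mutants, from 341, 346 and 341 normalized counts in the control to 1168, 1189 and 1112 in Ins/Ins and 1382, 1428 and 1500 in Ins/Del, with log2 fold changes of 1.76 ± 0.06 and 2.07 ± 0.05 (adjusted p = 1.37e-26 and 2.13e-29).

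*Flt1*, a VEGF receptor, had 282, 287 and 280 normalized counts in the control, 35.9, 41.8 and 30.7 in Ins/Ins and 15.3, 19.8 and 22.0 in Ins/Del, with log2 fold changes of -2.97 ± 0.13 and -3.89 ± 0.15 (adjusted p = 8.52e-22 and 8.33e-24). It was the pathway gene with the largest change in both lines. *Pgf*, one of its ligands, had at most 15.2 normalized counts in a library, and its log2 fold changes were -1.68 ± 0.50 and -1.88 ± 0.52 (adjusted p = 0.00342 and 0.00157). At this level *Pgf* could pass the filter on low counts only through the control libraries, so it had to differ to be tested. It is counted among the 11 pathway genes more than 2-fold lower in both mutants. The call of *Pgf* in Ins/Ins was lost without control replicate 1 (-1.65) or 3 (-1.62) or Ins/Ins replicate 2 (-1.42) or 3 (-1.38), and in Ins/Del without Ins/Del replicate 2 (-1.51) or 3 (-1.53). DESeq2 called *Pgf* in neither line (adjusted p = 0.0286 and 0.0184).

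**Figure D5:**
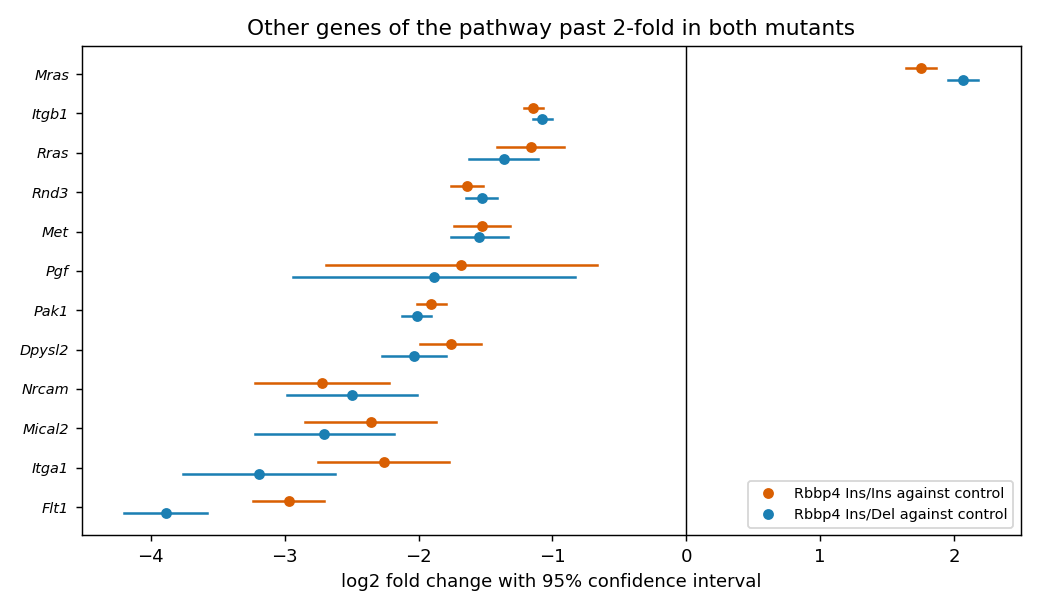
Log2 fold change against control, with its 95% confidence interval, of the 12 other pathway genes that were called and changed by more than 2-fold in both lines, for Ins/Ins (orange) and Ins/Del (blue). *Mras* is the one gene to the right of 0, and *Flt1*, *Itga1*, *Mical2* and *Nrcam* lie farthest to the left.

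The libraries held 15838064 to 21366868 counted reads. *Rbbp4* itself had 9932 to 10117 normalized counts in the control, 5485 to 5776 in Ins/Ins and 10129 to 10603 in Ins/Del, and since the mutations are short and in-frame its RNA level does not check the labels. The summed normalized counts of 10 ESC markers were 99410 to 104100 in the control, 123100 to 124900 in Ins/Ins and 122800 to 125600 in Ins/Del. Of these markers, 2 were lower and 7 higher in Ins/Ins, and 1 was lower and 6 higher in Ins/Del. Over all tested genes, beside which these and the following lists stand, 29.4% were lower and 29% higher in Ins/Ins. In Ins/Del these shares were 31.9% and 30.6%. Among markers of other cell types, those of fibroblasts (8 genes) summed to 727 to 825, 322 to 343 and 395 to 427 in the 3 lines, those of neural progenitors and neurons (7) to 3380 to 3468, 1445 to 1568 and 1761 to 1798, and those of primitive endoderm (6) to 3377 to 3667, 1517 to 1584 and 2177 to 2303. These 3 sums were lower in both mutants, but the genes within each list did not move as one. Of 6 tested fibroblast markers 5 were lower in each line and *Thy1* was higher (5.39-fold in Ins/Ins and 6.80-fold in Ins/Del). Of 5 tested neural markers 3 were lower in each line and *Tubb3* was higher (2.05-fold and 2.75-fold), and *Neurog2* had at most 3 reads in any library. Of 6 primitive endoderm markers 3 were lower in each line, among them *Sparc*, which makes up most of that sum (means of 3208, 1368 and 1996 normalized counts in the 3 lines). The other 3, *Gata6*, *Sox17* and *Pdgfra*, were higher in Ins/Del (2.20-fold, 2.22-fold and 1.85-fold) and not called in Ins/Ins. Endothelial markers (6) summed to 1254 to 1297, 2489 to 2658 and 2408 to 2597. *Emcn* had no more than 3 reads, and of 5 tested 1 was lower and 2 higher in each line. The higher 2 were *Pecam1* (means of 913, 1780 and 1602 normalized counts) and *Tek* (321, 793 and 852), which make up most of that sum, and *Tie1* was lower (2.92-fold and 2.75-fold). Mesoderm markers (6) summed to 267 to 288, 348 to 384 and 294 to 318. *Mesp1* had no more than 3 reads, and of 5 tested 1 was lower in Ins/Ins and 2 in Ins/Del, and 1 was higher in each. *Eomes* was the higher one (means of 193, 322 and 271), *T* was lower in both lines, with at most 3 reads in a mutant library, and *Hand1* was lower in Ins/Del. *Col1a2*, *Col3a1*, *Tie1* and *T* could not pass the filter on low counts without the control libraries, so lower mutant levels were favoured. In the same way *Sox17* passed through the mutant libraries alone, which favoured higher mutant levels. The part of other cell types in the results was not tested.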

How the data were processed

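Per the paper's methods, the authors lysed cells with TRIzol, purified RNA with a Direct-zol kit, made libraries with a Kapa mRNA HyperPrep kit, read paired ends on a NovaSeq, aligned reads to mm10 with STAR 2.7.3 and counted them with HTSeq. The deposited values are raw whole-number counts per gene symbol. The authors' own test was DESeq2 1.22.2 at an FDR of 0.01. The strand setting and annotation are not given in the sources used here.

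Here, TMM factors and the filter of edgeR 4.0.16 (filterByExpr, R 4.3.3), which kept 14125 genes, were applied, and the package fitted the quasi-likelihood model to all 9 libraries in 3 groups, with Benjamini-Hochberg adjustment over all tested genes. Normalized counts were scaled to one library size, the mean of the effective sizes. RPKM levels were computed here from them with the exonic length in GENCODE M21 (GRCm38), which matched all 31 members. The fit was tested on simulated data. Members were named with every library when past the threshold and 2-fold in a mutant, past it between the mutants, or a tested receptor. Members and lists were chosen with earlier results of these data known. Alternatives were DESeq2 1.42.0, its size factors, total-count scaling, no filter, only the groups compared, the replicate block, each library left out, an adjusted p of 0.05 and a mean count over 20.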

Additional observations from a re-analysis of the deposited data

Results flagged for a closer look

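For 2 members the mutant lines differed in their change from the same control libraries, by the test of Ins/Del against Ins/Ins itself. *Sema5b* was higher in Ins/Del by 0.54 on the log2 scale (edgeR, adjusted p = 0.00137; 95% interval 0.29 to 0.78), and *Sema7a* by 0.41 (adjusted p = 0.00562; 0.19 to 0.62). In both, all 3 libraries of Ins/Del lay above all 3 of Ins/Ins. Neither call held without Ins/Del replicate 1 or replicate 3. That of *Sema7a* was also lost under DESeq2 (adjusted p = 0.0339) and without Ins/Ins replicate 1 or 2.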

How the results depend on the processing

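The counts of members lower or higher than the control in either mutant stayed within 1.5 times under every alternative. Leaving out 1 library gave 15 to 16 lower and 6 to 7 higher members in Ins/Ins, and 13 to 14 lower and 5 to 8 higher in Ins/Del. Deviations of same-numbered libraries of different lines were weakly correlated, at -0.0196 to 0.0625 over 9 pairs. Differently numbered libraries gave -0.0568 to 0.0535 over 18 pairs. The numbers were not taken to pair samples. With the replicate block, 16 members were lower and 7 higher in Ins/Ins, 13 and 8 in Ins/Del, and 0 and 2 between the mutants. Between the mutants the 0 lower members became 1 with all genes of at least 1 read, 2 at an adjusted p of 0.05, and 0 to 1 when a library was left out. The 2 higher members became 1 under DESeq2, 4 at an adjusted p of 0.05, and 0 to 2 when a library was left out. Of the 1258 values of single members under alternatives, 1208 kept their direction and side of the threshold, 23 lost the call, 14 gained it and 13 changed sign. The sign changed only for values that were not called. Under DESeq2's size factors *Sema5a* between the mutants went to 0.00021. When a library was left out, log2 values ranged from -0.027 to 0.23 for *Sema4f* in Ins/Ins and from -0.049 to 0.0078 for *Plxna1* in Ins/Del. Between the mutants they ranged from -0.17 to 0.59 for *Sema3f*, -0.015 to 0.12 for *Sema4a*, -0.30 to 0.27 for *Sema5a* and -0.068 to 0.14 for *Sema6c*. The causes were not tested. DESeq2 also lost the calls of *Plxnc1* and *Sema6b* in Ins/Ins, of *Sema4a* in Ins/Del, of *Pgf* in both and of *Sema7a* between the mutants. Low read numbers limit *Sema3a*, *Sema3d*, *Sema3g*, *Sema6d* and *Plxnb3*, and 3 libraries a line limit the precision of every value.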
